A study of Mus musculus with 6 samples.

Results

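The genes of interleukin 10, 6 and 12 signalling were followed through macrophages of mouse ear skin that had been sorted by their level of the fractalkine receptor CX3CR1. The set held 10 genes, given by name with earlier results of these data known: the cytokine genes Il10, Il6 and Il12b, the receptor genes Il10ra, Il10rb, Il6ra and Il4ra, and the feedback genes Socs3, Socs2 and Cish. All 10 lay on a probe set with exactly 1 gene symbol, out of 22180 such genes on the array, and where a gene had several such probe sets the brightest was used. The mice were C57Bl/6 animals of genotype Cx3cr1+/gfp, aged 2 weeks, so that all groups carried green fluorescent protein in 1 Cx3cr1 allele as a reporter of that gene and kept 1 intact allele. The 3 groups were CX3CR1high, CX3CR1int (intermediate) and CX3CR1low macrophages, with 2 samples each. Each sample was pooled from 4 mice, and the samples of a subset came from 2 independent litters.

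Interleukin 10 is the main cytokine with which macrophages restrain inflammation. It binds a receptor built from the chains IL-10Rα and IL-10Rβ, which activates the Janus kinases JAK1 and TYK2 and the transcription factor STAT3. Interleukin 6 reaches STAT3 through the receptor IL-6Rα and the shared chain gp130, but there SOCS3, itself made in response to STAT3, binds gp130 and ends the signal, while the IL-10 receptor is spared. Interleukin 12, of which Il12b encodes the p40 chain shared with IL-23, drives T cells through STAT4, and IL-10 limits its production in macrophages. CIS, the product of Cish, and SOCS2 are made in response to STAT5 and restrain receptors that use it.

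Values are log2 signals, in which 1 unit is a doubling. Cx3cr1 itself was at 10.55 and 9.51 in CX3CR1high, 7.05 and 6.84 in CX3CR1int, and 5.87 and 7.01 in CX3CR1low samples. By this transcript CX3CR1low sample 2 lay within the range of the CX3CR1int samples. The 6 arrays had medians of 4.84 to 4.94 and correlated across genes at 0.974 to 0.977 within a subset and 0.96 to 0.978 between subsets, where genes are not independent replicates. Macrophage markers (Adgre1, Csf1r, Fcgr1, Mertk, Cd68, Itgam, Cd14 and Aif1) had a mean of 10.09 and 10.16 in CX3CR1high, 10.16 and 10.27 in CX3CR1int, and 10.2 and 10.09 in CX3CR1low samples, and limma called 0 of these 8 genes in each comparison (2 had an unadjusted p below 0.05 between CX3CR1high and CX3CR1low cells and 0 in the other comparisons). Replicates 1 and 2 differed in sex composition in every subset: the female transcript Xist was at 7.39 to 7.97 in replicates 1 and 10.99 to 11.39 in replicates 2. The number of arrays limits the precision of every value. The p-values set a difference against the spread between these pooled samples, drawn toward that of other genes. In the model without the replicate number, that spread includes any difference between replicates 1 and 2.

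Promoter sequences of 6 of the 10 genes were held by the RefSeq table of build GRCm38.p6 (Il6, Il6ra, Il12b, Il4ra, Socs3 and Cish). The 250 bases before the start that this table uses are printed for Socs3, the STAT3 feedback gene, and for Il6 and Il12b, the inflammatory cytokine genes whose CX3CR1high samples lay on opposite sides of the CX3CR1low samples. Capitals mark matches to TTCNNNGAA, the spacing bound by most STAT proteins, or to TGANTCA, the AP-1 element.
Socs3, chr11:117969367-117969616, minus strand: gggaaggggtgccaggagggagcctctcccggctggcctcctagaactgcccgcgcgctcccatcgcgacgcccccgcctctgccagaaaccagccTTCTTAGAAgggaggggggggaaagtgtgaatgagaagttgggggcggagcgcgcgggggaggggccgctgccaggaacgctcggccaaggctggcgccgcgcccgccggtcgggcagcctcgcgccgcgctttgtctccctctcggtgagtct
Il6, chr5:30012864-30013113, plus strand: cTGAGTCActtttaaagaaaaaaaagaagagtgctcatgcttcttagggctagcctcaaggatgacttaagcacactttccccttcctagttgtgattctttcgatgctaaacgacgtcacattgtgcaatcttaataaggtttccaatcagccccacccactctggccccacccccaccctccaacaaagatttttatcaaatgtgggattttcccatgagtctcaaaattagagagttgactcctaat
Il12b, chr11:44399813-44400062, plus strand: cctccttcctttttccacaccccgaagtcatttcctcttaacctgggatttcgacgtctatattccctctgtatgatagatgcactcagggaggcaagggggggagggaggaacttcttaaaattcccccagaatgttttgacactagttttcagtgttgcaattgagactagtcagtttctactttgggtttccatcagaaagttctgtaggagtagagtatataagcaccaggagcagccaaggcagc
In 5 of the 6 genes the window ends where the annotated gene begins. The Socs3 window instead lies inside the span that RefSeq annotates for the gene, chr11:117966079-117970336, so that it is upstream of the start in the promoter table and not of the whole gene. The Socs3 window held TTCTTAGAA at bases -154 to -146 from the table's start, and the Il6 window held TGAGTCA at bases -249 to -243. Both motifs read alike on either strand and do not overlap here. Of 32851 promoter windows of the same length, 7.02% held TTCNNNGAA and 6.75% held TGANTCA. Matches to the more widely spaced STAT6 element (5.85% of windows) or to TGACGTCA, the cyclic AMP element (1.55%), were found in 0 of the 6 windows, and 4 of the 6 held none of the 4 motifs. A match is a description of the letters only.

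Il10 was highest in CX3CR1high cells. Its log2 signal was 11.36 and 11.16 in CX3CR1high samples, 10.13 and 10.28 in CX3CR1int samples, and 10.33 and 9.96 in CX3CR1low samples. Both CX3CR1high samples lay above all 4 others, and the CX3CR1int samples lay within the range of the CX3CR1low samples. Il10 was 2.17-fold higher in CX3CR1high than in CX3CR1low cells (log2 difference 1.115 ± 0.162, SE, n = 2 per subset, 95% interval 0.75 to 1.48, limma adjusted p = 0.0370). It was 2.08-fold higher in CX3CR1high than in CX3CR1int cells, with an interval of 0.69 to 1.42 (log2), and that difference did not pass (limma adjusted p = 0.0732). With the replicate number as a block in the model both differences passed (limma adjusted p = 0.0174 against CX3CR1low and 0.0346 against CX3CR1int). By replicate number the difference of CX3CR1high from CX3CR1low was 1.03 in replicates 1 and 1.2 in replicates 2, and that from CX3CR1int was 1.23 and 0.88. CX3CR1int and CX3CR1low cells differed by 0.06, with an interval of -0.31 to 0.43.

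The Il10 call against CX3CR1low lay close to the threshold. It passed in 5 of 16 alternative settings, with adjusted p-values from 0.0174 to 0.658 over all of them. The size of the difference was 0.93 to 1.3 when any sample was left out, but the adjusted p then lay between 0.0629 and 0.265, so that leaving out any single sample ended the call. The smallest difference, 0.75, came with the mean level of keratinocyte and fibroblast markers as a covariate (adjusted p = 0.658). In the plot of Il10 under each setting, every estimate against both other subsets lies above 0. Many of these points repeat the reported 1.115 (against CX3CR1low) or 1.055 (against CX3CR1int) by construction. Their settings change only the estimated spread or the genes adjusted over, so they could not have fallen below 0.

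Markers of other myeloid cells also differed between the subsets. The mean of 8 dendritic cell markers was 5.825 and 5.731 in CX3CR1high, 5.76 and 5.674 in CX3CR1int, and 5.304 and 5.641 in CX3CR1low samples. Of 7 dendritic cell markers tested between CX3CR1high and CX3CR1low cells, 5 were higher and 2 lower. The lower ones were Cd24a (means of 7.01 and 8.045) and Zbtb46 (5.495 and 5.92). Against CX3CR1int cells 2 of the 7 were higher and 4 lower, with a median of -0.045. Dpp4 was below 4.335, the level under which genes were left out as dim. Ccl22, a chemokine of mature dendritic cells and of some macrophages, was at 8.57 and 8.12 in CX3CR1high, 6.9 and 6.93 in CX3CR1int, and 5.94 and 6.9 in CX3CR1low samples, and it was called between CX3CR1high and CX3CR1low cells (1.925, limma adjusted p = 0.0428). Its CX3CR1high samples lay above the other 4, like those of Il10. Ccr7, the receptor with which dendritic cells migrate to lymph nodes, was called only with the replicate block (1.315, limma adjusted p = 0.0239, and 0.0510 without it), and its CX3CR1high and CX3CR1int samples overlapped.

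Of 4 Langerhans cell markers 2 were higher and 2 lower in CX3CR1high than in CX3CR1low cells, with 0 called by limma and 2 at an unadjusted p below 0.05. The largest difference was that of Cd207, which encodes langerin (1.22, limma adjusted p = 0.181). The mean of 7 monocyte markers was 6.174 and 6.483 in CX3CR1high, 7.084 and 7.766 in CX3CR1int, and 6.573 and 7.389 in CX3CR1low samples. Ly6c2, a surface protein of inflammatory monocytes, was at 3.36 and 4.92 in CX3CR1high, 7.35 and 7.9 in CX3CR1int, and 6.48 and 7.11 in CX3CR1low samples. It was lower in CX3CR1high than in CX3CR1int cells (limma adjusted p = 0.0421), and with the replicate block also lower than in CX3CR1low cells, together with Gda (limma adjusted p = 0.00484 and 0.0337). Ly6c2 passed the dim filter only through the other subsets, since its CX3CR1high mean of 4.14 lay below 4.335. Ccr2, the chemokine receptor of the same monocytes, was instead higher in CX3CR1high than in CX3CR1low cells (1.235, limma adjusted p = 0.401). Of 6 monocyte markers tested in that comparison, 2 were higher and 4 lower. The part of dendritic cells, Langerhans cells and monocytes in the Il10 signal was not tested.

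**Figure D1:**
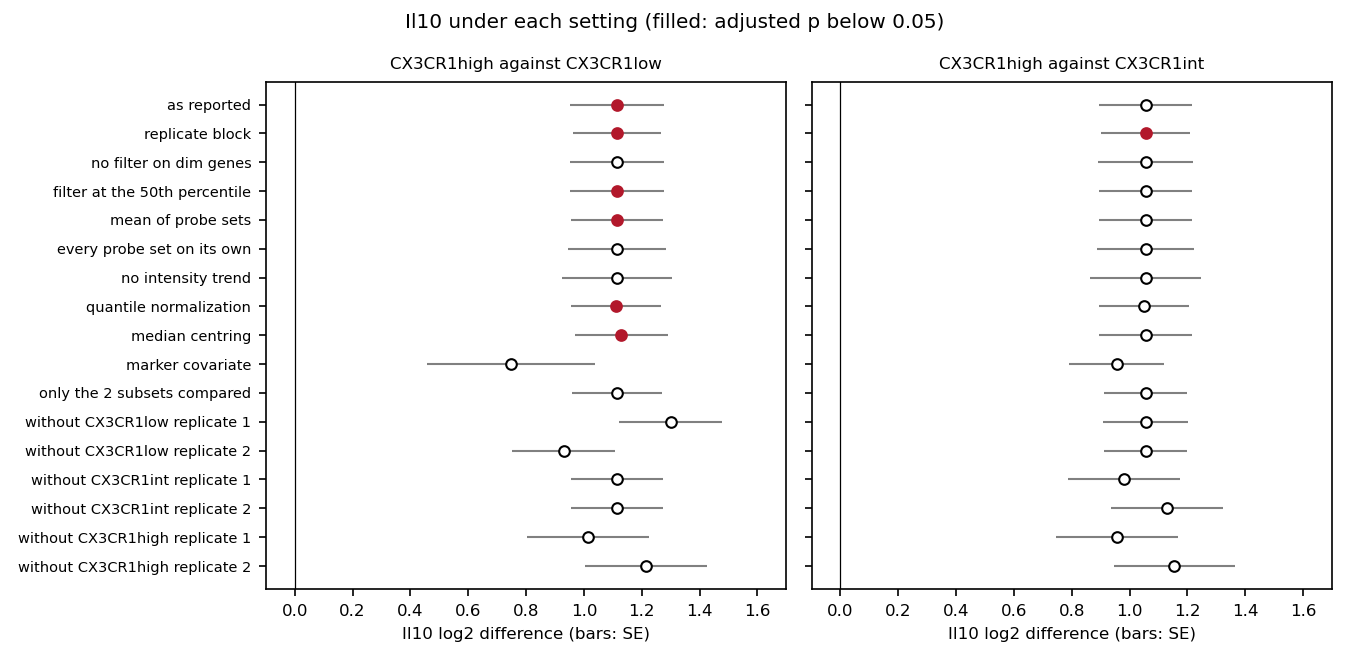
Il10 log2 difference of CX3CR1high from CX3CR1low (left) and from CX3CR1int cells (right) under the reported model and 16 alternatives; points are estimates, bars are the SE, and filled points have an adjusted p below 0.05. Estimates run from 0.75 to 1.3 on the left, of which the reported value and 5 alternatives are filled, and from 0.955 to 1.155 on the right, where 1 alternative is filled.

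Among 1255 genes that spanned at least 1 log2 unit, the 3 whose values over the 6 samples were most like those of Il10 were Ndc80, a kinetochore gene (Pearson r = 0.985), Ctla2b, related to cathepsin inhibitors (r = 0.976), and Gatm, an enzyme of creatine synthesis (r = 0.969). Ndc80 was at 7.14 and 7.27 in CX3CR1high, 5.61 and 5.66 in CX3CR1int, and 5.74 and 5.31 in CX3CR1low samples. These correlations describe 6 samples that share the contrast between subsets.

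**Figure D2:**
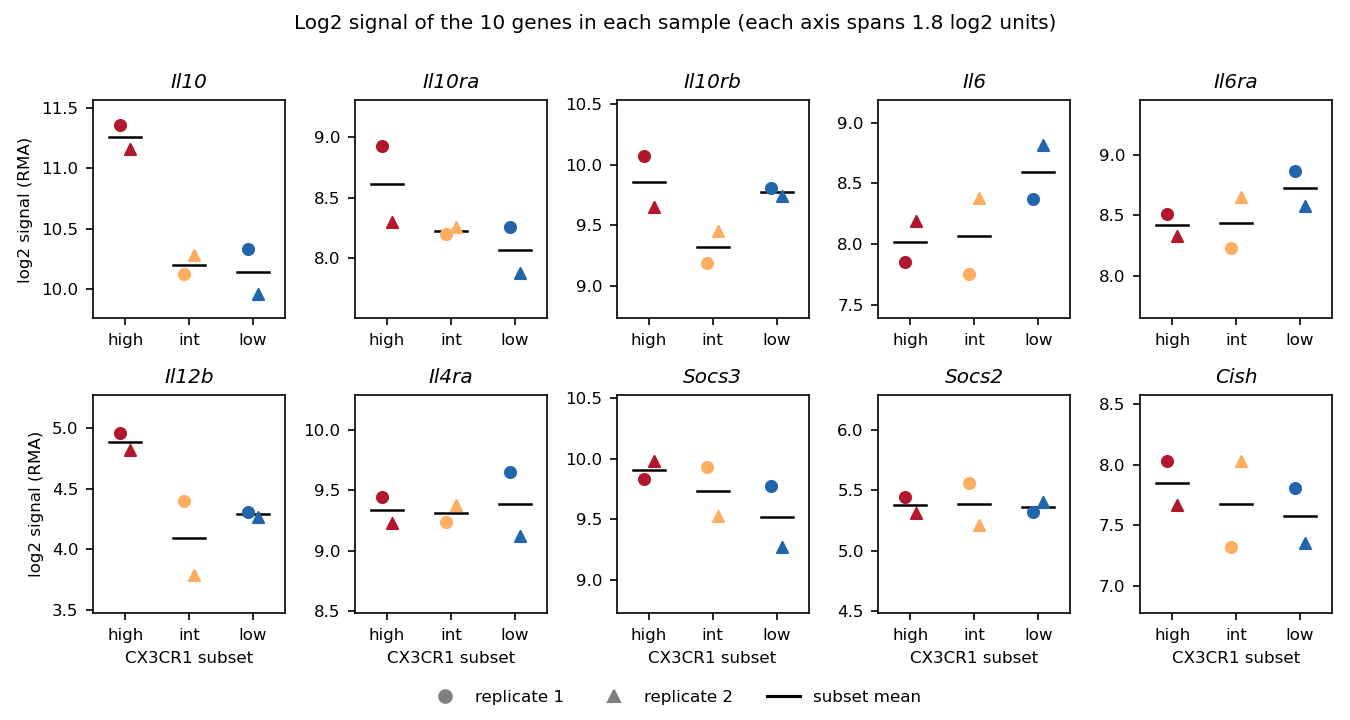
Log2 signal of each of the 10 genes in the 6 samples, by subset (circles, replicate 1; triangles, replicate 2; lines, subset means); each axis spans 1.8 log2 units, at its own level. The CX3CR1high samples of Il10 (11.36 and 11.16) and of Il12b (4.96 and 4.82) lie above all others, Il6 is highest in CX3CR1low sample 2 (8.82), and the samples of Il4ra, Socs2 and Cish overlap between subsets.

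Il12b, which encodes p40, was dim. Its log2 signal was 4.96 and 4.82 in CX3CR1high samples, 4.4 and 3.79 in CX3CR1int samples, and 4.31 and 4.27 in CX3CR1low samples. The CX3CR1high samples lay above the other 4, as for Il10. Il12b passed the dim level of 4.335 only through the CX3CR1high samples, since the mean of the other 4 was 4.19. A gene that passes in this way had to differ, so that its difference is a description. Against CX3CR1low cells, where both samples lay below that level, the measured log2 difference was 0.6 (95% interval 0.11 to 1.09, limma adjusted p = 0.405). With those samples set at the level the difference was 0.555, or 1.47-fold. Against CX3CR1int cells, where 1 of 2 samples lay below the level, the measured difference was 0.795 (limma adjusted p = 0.366). With that sample set at the level the difference was 0.5225, and neither measured difference passed. Il12a, the p35 chain that joins p40 in IL-12, and Il23a, the p19 chain that joins it in IL-23, were below the level on average and were not tested. Il12a was at 4.22 and 4.08 in CX3CR1high, 4.2 and 4.0 in CX3CR1int, and 3.47 and 4.0 in CX3CR1low samples.

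Il6 had the opposite order to Il10. Its log2 signal was 7.85 and 8.19 in CX3CR1high samples, 7.75 and 8.38 in CX3CR1int samples, and 8.37 and 8.82 in CX3CR1low samples. The CX3CR1high samples lay below both CX3CR1low samples, the CX3CR1int samples spanned from below the CX3CR1high samples to just above the lower CX3CR1low sample, and replicate 2 was the higher in every subset. The difference of CX3CR1high from CX3CR1low was -0.575 ± 0.256 (SE), with an interval of -1.16 to 0.0066 (log2), and did not pass (limma adjusted p = 0.521). That of CX3CR1int from CX3CR1low was -0.53, with an interval of -1.11 to 0.05 (limma adjusted p = 0.996). CX3CR1high and CX3CR1int cells differed by -0.045, with an interval of -0.63 to 0.54.

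The markers of keratinocytes and fibroblasts, cells that can also make IL-6, were likewise highest in CX3CR1low samples. The mean of 16 keratinocyte markers was 6.359 and 6.528 in CX3CR1high, 6.387 and 6.686 in CX3CR1int, and 6.892 and 7.453 in CX3CR1low samples. The mean of 14 fibroblast markers was 6.813 and 6.886 in CX3CR1high, 7.106 and 7.334 in CX3CR1int, and 7.411 and 8.135 in CX3CR1low samples. In both lists, as for Il6, replicate 2 was the higher in every subset. Between CX3CR1high and CX3CR1low cells, 15 of 16 keratinocyte and 13 of 14 fibroblast markers were lower. Of these markers 1, the keratin gene Krt10, passed (-1.46, limma adjusted p = 0.0439), against 0.399% of all genes. With the replicate block 3 keratinocyte and 6 fibroblast markers passed, all lower in CX3CR1high cells, against 0.992% of all genes. No marker of these 2 lists was below the dim level. With the mean of both lists as a covariate, the Il6 difference between CX3CR1high and CX3CR1low cells was 0.25 ± 0.384 (SE), in place of -0.575 ± 0.256. With so large an SE the sign of the covariate estimate is not settled. The replicate block, balanced over the subsets, left the difference at -0.575. The covariate differed between subsets (6.571 and 6.695 in CX3CR1high, 7.135 and 7.771 in CX3CR1low samples) and was higher in replicate 2 of each subset. Its slope is fitted from differences between replicates within subsets, so the effect of these markers cannot be told apart from other differences between replicates. The part of other skin cells in the Il6 signal was not tested beyond this, and in such sorted samples fewer cells of a type and less RNA per cell cannot be told apart.

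**Figure D3:**
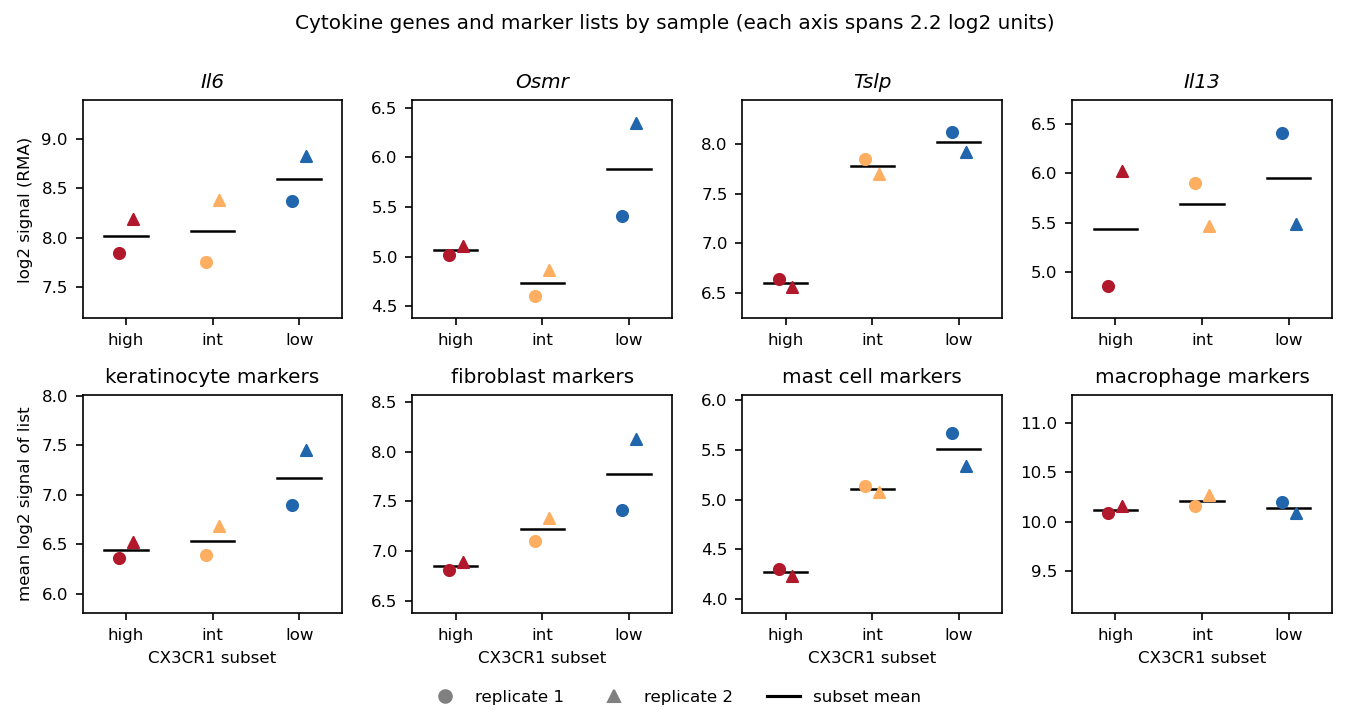
Log2 signal of Il6, Osmr, Tslp and Il13 (top) and mean log2 signal of the marker lists of keratinocytes, fibroblasts, mast cells and macrophages (bottom) in the 6 samples, by subset; lines are subset means and each axis spans 2.2 log2 units. Tslp and the mast cell mean are lowest in CX3CR1high samples (6.64 and 6.56, and 4.301 and 4.234), the keratinocyte and fibroblast means are highest in CX3CR1low sample 2 (7.453 and 8.135), and the macrophage mean stays between 10.09 and 10.27.

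The receptor genes moved less than Il10. Il10ra, the chain that gives the receptor its specificity for IL-10, was at 8.93 and 8.3 in CX3CR1high, 8.2 and 8.26 in CX3CR1int, and 8.26 and 7.88 in CX3CR1low samples. Both CX3CR1high samples lay above all 4 others, but CX3CR1high sample 2 exceeded CX3CR1int sample 2 by only 0.04. Il10ra was 1.46-fold higher in CX3CR1high than in CX3CR1low cells (0.545 ± 0.236, SE, 95% interval 0.0094 to 1.08) and did not pass (limma adjusted p = 0.511). Its difference was 0.23 to 0.86 when any sample was left out and 0.0373 with the keratinocyte and fibroblast covariate.

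Il10rb, the second chain, which also serves receptors of IL-22 and type III interferons, was at 10.07 and 9.65 in CX3CR1high, 9.19 and 9.45 in CX3CR1int, and 9.81 and 9.74 in CX3CR1low samples. It was lowest in the CX3CR1int samples, both of which lay below all others. The difference of CX3CR1high from CX3CR1int was 0.54 (95% interval 0.13 to 0.95, limma adjusted p = 0.481) and that of CX3CR1int from CX3CR1low was -0.455 (-0.87 to -0.043, limma adjusted p = 0.996). CX3CR1high and CX3CR1low samples overlapped.

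Il6ra, the IL-6 binding chain, was at 8.51 and 8.33 in CX3CR1high, 8.23 and 8.65 in CX3CR1int, and 8.87 and 8.58 in CX3CR1low samples. Its CX3CR1high samples lay below the CX3CR1low samples (log2 difference -0.305, 95% interval -0.76 to 0.15, limma adjusted p = 0.699). Il4ra, the chain shared by the receptors of interleukins 4 and 13 and itself a gene that IL-10 raises in macrophages, was at 9.44 and 9.23 in CX3CR1high, 9.24 and 9.38 in CX3CR1int, and 9.65 and 9.12 in CX3CR1low samples. All 3 subsets of Il4ra overlapped, and the difference of CX3CR1high from CX3CR1low was -0.05, with an interval of -0.50 to 0.40.

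Limma called 0 of the 3 feedback genes in each comparison, and 0 had an unadjusted p below 0.05. Socs3 was at 9.83 and 9.98 in CX3CR1high, 9.93 and 9.53 in CX3CR1int, and 9.77 and 9.27 in CX3CR1low samples. Its means were ordered from CX3CR1high to CX3CR1low, but CX3CR1high sample 1 exceeded CX3CR1low sample 1 by only 0.06. The difference of CX3CR1high from CX3CR1low was 0.385 (95% interval -0.087 to 0.86, limma adjusted p = 0.619). A second, dimmer probe set of Socs3 had another pattern, at 6.96 and 6.74 in CX3CR1high, 6.0 and 6.61 in CX3CR1int, and 6.75 and 6.86 in CX3CR1low samples. There CX3CR1int was the lowest subset, and CX3CR1high differed from CX3CR1low by 0.045.

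Cish was at 8.03 and 7.67 in CX3CR1high, 7.32 and 8.03 in CX3CR1int, and 7.81 and 7.35 in CX3CR1low samples. The CX3CR1int samples differed from each other by as much as the whole range of the gene, 0.71, and no subset stood apart. CX3CR1high and CX3CR1low differed by 0.27 (95% interval -0.35 to 0.89), and the second probe set of Cish differed by 0.4. Socs2 varied least of the 10 genes, with 5.44 and 5.31 in CX3CR1high, 5.56 and 5.21 in CX3CR1int, and 5.32 and 5.4 in CX3CR1low samples. Its difference of CX3CR1high from CX3CR1low was 0.015, with an interval of -0.40 to 0.43 (log2), and its second probe set differed by -0.145.

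Counted over the set, 1 of 10 genes (Il10) was called between CX3CR1high and CX3CR1low cells, against 0.399% of the 15529 genes tested. Il12b, which had to differ to pass the filter, is left out of the next counts. The 2 subsets did not overlap in 5 of the other 9 genes, 3 higher in CX3CR1high (Il10, Il10ra and Socs3) and 2 lower (Il6 and Il6ra). Over all genes tested, 38.3% did not overlap, 19.8% higher and 18.4% lower. The median difference of the 9 genes was 0.085, beside 0.005 over all genes tested.

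Between CX3CR1high and CX3CR1int cells, limma called 0 of the 10 genes, against 0.142% of all genes, and without Il12b 2 of 9 had an unadjusted p below 0.05 (Il10 and Il10rb), against 7.89% of all genes. The replicate block called 1, Il10, against 0.303% of all genes. In 3 of the 9 genes the subsets did not overlap, all higher in CX3CR1high (Il10, Il10ra and Il10rb), against 36.8% of all genes in either direction and 18.3% higher. The median of the 9 differences was 0.175, beside 0 over all genes. The CX3CR1high samples serve both of these comparisons, so that they are not independent.

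Between CX3CR1int and CX3CR1low cells, limma called 0 of the 10 genes, against 0.00644% of all genes, and Il10rb alone had an unadjusted p below 0.05, as had 4.89% of all genes. It was also the only gene of the 10 whose samples did not overlap between these subsets, against 31.4% of all genes in either direction and 14.8% lower. The median difference of the 9 genes was 0.025, beside 0.01 over all genes tested.

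**Figure D4:**
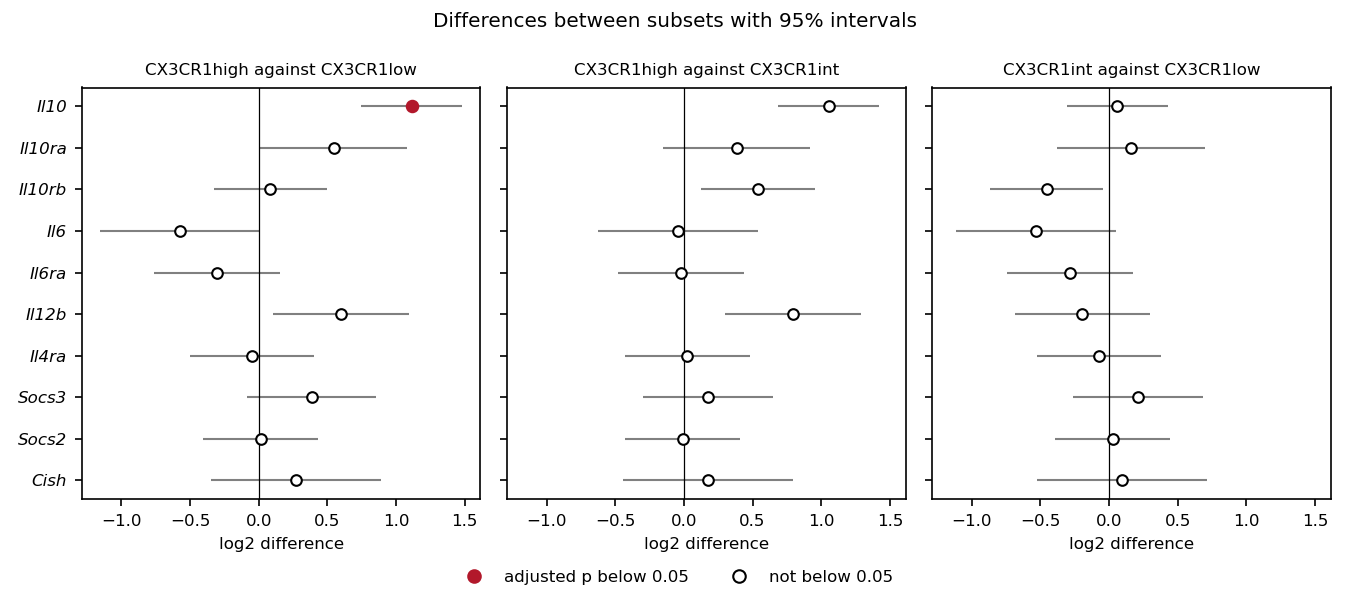
Log2 difference of each of the 10 genes in the 3 comparisons (first-named subset minus second), with 95% intervals from the limma fit; filled points have an adjusted p below 0.05. Il10 against CX3CR1low (1.115) is the only filled point, the intervals of Il12b and Il10ra against CX3CR1low and of Il10, Il12b and Il10rb against CX3CR1int lie above 0, and that of Il10rb between CX3CR1int and CX3CR1low lies below 0.

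The wider pathway was read from 15 lists with 114 different genes, of which 104 had a probe set of a single symbol and 94 were bright enough to be tested. Among the 84 of these outside the set of 10, 1 was called between CX3CR1high and CX3CR1low cells (0.399% of all genes), and it was lower: Tslp. The other 2 comparisons had 0 calls among the 84, while an unadjusted limma p below 0.05 was found for 21 of the 84 in CX3CR1high against CX3CR1low (9.65% of all genes), 12 in CX3CR1high against CX3CR1int (7.89%) and 5 in CX3CR1int against CX3CR1low (4.89%). The median difference of the 84 genes between CX3CR1high and CX3CR1low was -0.065, beside 0.005 over all genes tested. The replicate block called Tslp and Stat4 among them against CX3CR1low (0.992% of all genes) and Tslp against CX3CR1int (0.303%).

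**Figure D5:**
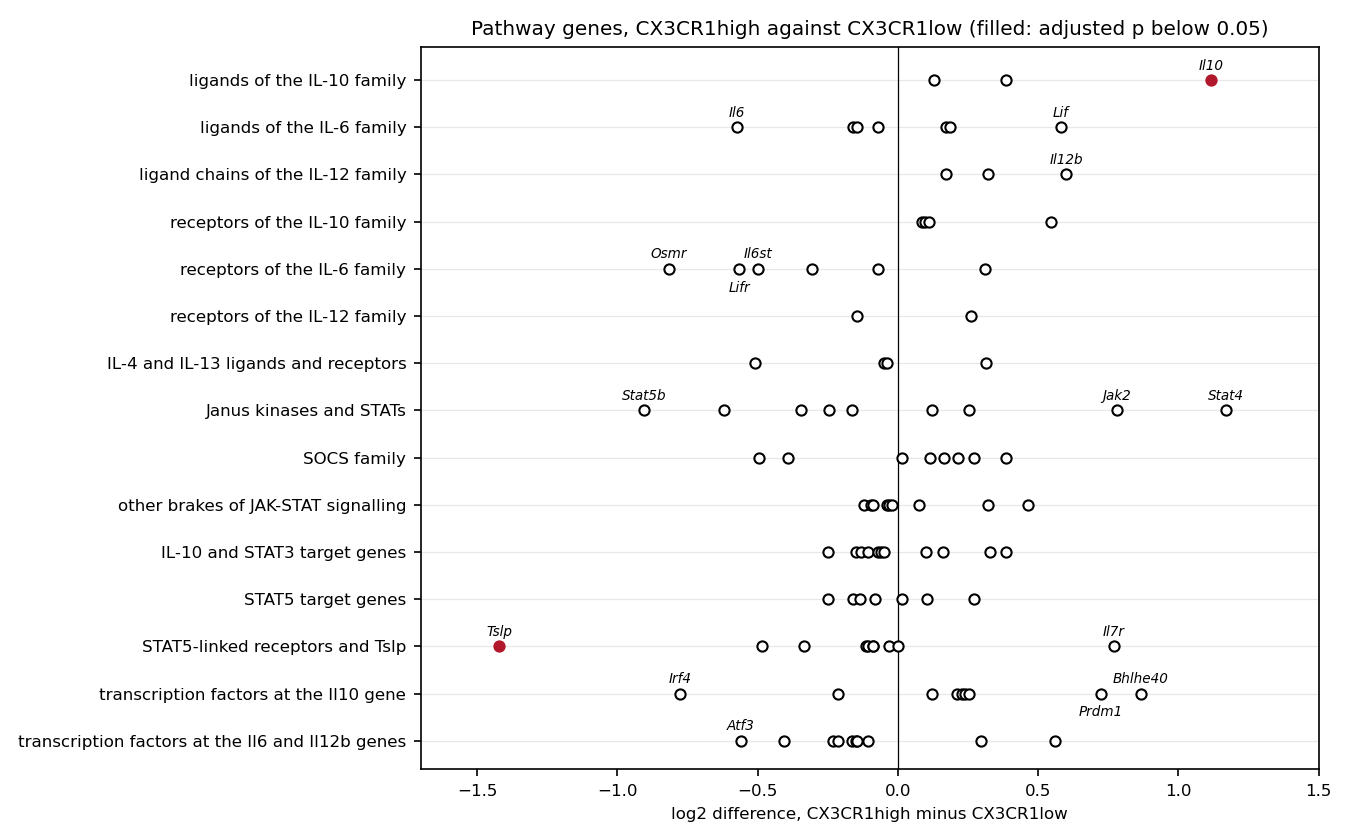
Log2 difference of CX3CR1high from CX3CR1low for each tested gene of the 15 pathway lists (rows, with genes on several lists shown on each); filled points have an adjusted p below 0.05 and selected genes are named. Il10 (1.115) and Tslp (-1.42) are the filled points, and the Janus kinase and STAT list spreads from Stat5b (-0.905) to Stat4 (1.17).

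Of the 7 tested ligands of the IL-6 family, limma called 0 in each comparison, and 1, 1 and 0 had an unadjusted p below 0.05 (CX3CR1high against CX3CR1low, CX3CR1high against CX3CR1int, CX3CR1int against CX3CR1low). Lif, a gp130 cytokine that keeps stem cells and acts on nerves and muscle, was at 7.19 and 7.03 in CX3CR1high, 6.58 and 6.51 in CX3CR1int, and 6.6 and 6.46 in CX3CR1low samples. The CX3CR1high samples of Lif lay above the other 4, by 0.58 against CX3CR1low (limma adjusted p = 0.292). Osm, the gp130 cytokine made by macrophages, differed by -0.16 in the same comparison, and Il27, the p28 chain of IL-27, by 0.17. In the IL-10 family Il19 was at 5.35 and 5.12 in CX3CR1high and 4.91 and 4.79 in CX3CR1low samples, while Il20 and Il22 were below the dim level.

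The receptors of the IL-6 family were lower in CX3CR1high than in CX3CR1low cells in 5 of 6 tested genes, with 0 called by limma and 3 at an unadjusted p below 0.05. Il6st, which encodes gp130, was at 9.6 and 9.56 in CX3CR1high, 10.2 and 9.99 in CX3CR1int, and 10.08 and 10.08 in CX3CR1low samples. The CX3CR1high samples of Il6st were the lowest, by 0.5 against CX3CR1low (limma adjusted p = 0.260). Lifr, the receptor of LIF, differed by -0.565 (limma adjusted p = 0.349). Osmr, the receptor chain of oncostatin M, was at 5.02 and 5.11 in CX3CR1high, 4.6 and 4.86 in CX3CR1int, and 5.41 and 6.35 in CX3CR1low samples, a difference of -0.815 (limma adjusted p = 0.379). Its highest sample was CX3CR1low sample 2, which also had the highest keratinocyte and fibroblast means. The part of other skin cells in the Osmr signal was not tested. The median of the 6 receptors was -0.4025, beside 0.005 over all genes tested. Against CX3CR1int cells 3 of the 6 were higher and 3 lower, with a median of 0.0075, 0 called by limma and 2 at an unadjusted p below 0.05, and Osmr differed by 0.335.

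Of 9 kinases and STATs tested between CX3CR1high and CX3CR1low cells, 4 were higher and 5 lower, and 0 were called by limma (5 at an unadjusted p below 0.05). Stat4, the transcription factor of IL-12 signals, was at 6.11 and 5.54 in CX3CR1high, 5.3 and 4.4 in CX3CR1int, and 4.87 and 4.44 in CX3CR1low samples. Both CX3CR1high samples lay above the others, and the difference from CX3CR1low of 1.17 passed only with the replicate block (limma adjusted p = 0.0285, against 0.238 without it). With the keratinocyte and fibroblast covariate it was 0.196 (limma adjusted p = 0.980). Jak2, a kinase used by receptors of IL-12, IL-6 and some colony-stimulating factors, was 0.78 higher (limma adjusted p = 0.158). Stat5b, a factor that raises Cish and Socs2, was at 6.37 and 6.26 in CX3CR1high, 6.51 and 6.82 in CX3CR1int, and 7.2 and 7.24 in CX3CR1low samples, in the order of the sorted subsets without overlap, and its difference of -0.905 did not pass (limma adjusted p = 0.105). Stat3, which carries the IL-10 signal, differed by -0.165, and Stat6, which carries that of IL-4, by 0.12.

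Genes that IL-10 and STAT3 raise showed no common direction. Of 11 tested, 4 were higher and 7 lower in CX3CR1high than in CX3CR1low cells, 0 were called by limma (1 at an unadjusted p below 0.05), and the median was -0.06, beside 0.005 over all genes tested. Bcl3, an inhibitor of NF-kappaB that IL-10 induces, differed by -0.145, Nfil3, a repressor acting on Il12b, by 0.16, and Il1rn, the antagonist of interleukin 1, by 0.33. Of 8 SOCS family genes 0 were called by limma (1 at an unadjusted p below 0.05), with Socs4 (-0.495) and Socs6 (-0.39) the lowest. Of 7 STAT5 target genes 0 were called by limma and 0 had an unadjusted p below 0.05, and their median was -0.08.

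Transcription factors that act at the Il10 gene were higher in 7 of 9 tested genes in CX3CR1high against CX3CR1low cells, with 0 called by limma, 3 at an unadjusted p below 0.05 and a median of 0.23, beside 0.005 over all genes tested. Bhlhe40, a repressor of Il10, was at 8.3 and 8.32 in CX3CR1high, 7.39 and 7.13 in CX3CR1int, and 7.32 and 7.57 in CX3CR1low samples. Its CX3CR1high samples thus lay above the other 4, like those of Il10, with differences of 0.865 from CX3CR1low (limma adjusted p = 0.124) and 1.05 from CX3CR1int (limma adjusted p = 0.101). Prdm1, which encodes Blimp-1, was 0.725 higher (limma adjusted p = 0.166), and Irf4, a factor of IL-4 responses, was lower (log2 difference -0.775, limma adjusted p = 0.179). Maf, an activator of Il10 in macrophages, was at 11.37 and 11.09 in CX3CR1high, 9.8 and 11.28 in CX3CR1int, and 11.27 and 10.77 in CX3CR1low samples, with CX3CR1int sample 1 the lowest. Of 10 factors at the Il6 and Il12b genes, 2 were higher and 8 lower, with 0 called by limma and 2 at an unadjusted p below 0.05, among them Rel (0.56) and Atf3 (-0.56).

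Tslp, an epithelial cytokine that signals through STAT5 in dendritic cells, was the only other called gene of the pathway. Its log2 signal was 6.64 and 6.56 in CX3CR1high samples, 7.85 and 7.7 in CX3CR1int samples, and 8.12 and 7.92 in CX3CR1low samples. Both CX3CR1high samples lay far below the other 4. Tslp fell by 1.42 on the log2 scale in CX3CR1high against CX3CR1low cells (-1.42 ± 0.176, SE, limma adjusted p = 0.0180) and differed by -1.175 from CX3CR1int cells (limma adjusted p = 0.0656, and 0.0363 with the replicate block). Leaving out either sample of CX3CR1high or of CX3CR1low cells ended the call (adjusted p = 0.0674 to 0.188), with a difference between -1.52 and -1.32.

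The mast cell markers followed the same order as Tslp, with means of 4.301 and 4.234 in CX3CR1high, 5.136 and 5.073 in CX3CR1int, and 5.676 and 5.341 in CX3CR1low samples. Of 7 markers 5 were tested, all 5 lower in CX3CR1high than in CX3CR1low cells and 3 of them called (Cpa3, Mcpt4 and Cma1), while Fcer1a and Ms4a2 were below the dim level. Against CX3CR1int cells Cpa3 was called, and with the replicate block Mcpt4 as well, both lower in CX3CR1high cells. Keratinocyte means, given above, overlapped between CX3CR1high and CX3CR1int samples. Fibroblast means did not, and were lower in CX3CR1high (6.813 and 6.886) than in CX3CR1int samples (7.106 and 7.334). The part of other cells in the Tslp signal was not tested beyond the covariate for keratinocyte and fibroblast markers, with which the difference was -1.72 (adjusted p = 0.200). The receptor chains of TSLP differed between CX3CR1high and CX3CR1low cells by 0.77 (Il7r, limma adjusted p = 0.372) and -0.105 (Crlf2).

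Ligands of Il4ra gave no common pattern. Il13 was at 4.86 and 6.02 in CX3CR1high, 5.9 and 5.47 in CX3CR1int, and 6.41 and 5.49 in CX3CR1low samples, which overlapped, and Il4 differed by -0.04 between CX3CR1high and CX3CR1low. Il13ra1, the chain that pairs with Il4ra, was 0.315 higher, and Il13ra2 was below the dim level.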

How the data were processed

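The deposited values were log2 array signals, which the authors had normalised by RMA (per the submitters' processing notes, in version 1.4 of Affymetrix Expression Console), and were used as given. Per the labels' protocols, a whole-transcriptome amplification preceded labelling. Genes were named through the platform annotation: of 34390 probe sets, 23521 carried 1 symbol, 1814 several and 9055 none, and 0 columns of values were left unused. Genes under the 30th percentile of mean signal (4.335) were left out, which left 15529 of 22180.

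Differences were tested with limma 3.58.1 in R 4.3.3, with a mean per subset over all 6 samples, an intensity trend in the variance prior (3 residual and 5.77 prior degrees of freedom), two-sided tests and adjustment by Benjamini-Hochberg over the whole table. A gene was called at an adjusted p below 0.05. The genes of the set and the lists were chosen with earlier results of these data known. All 10 genes were named, along with, from each list, called genes and others of small p or given for their role after their values were seen, and the 3 genes most like a called member. Replicate numbers were checked for pairing: the correlation of deviations of equal numbers, taken across genes, was 0.178, 0.136 and 0.146 (subsets high with int, high with low, int with low; 0.158, 0.113 and 0.123 without sex-linked genes), so the replicate block (2 residual degrees of freedom) is given where it changes a call. On simulated data between CX3CR1high and CX3CR1low samples, with 15529 genes, the fit recovered 35% of genes changed by 1 log2 unit and 91% of those changed by 2, with 2 false calls. Some listed pathway genes were not analysed here.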

Additional observations from a re-analysis of the deposited data

How the results depend on the processing

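Precision was limited by 2 arrays per subset. The count of the 10 genes called between CX3CR1high and CX3CR1low cells, 1 as reported, was 0 with no filter on dim genes, with every probe set on its own, with no intensity trend, with the marker covariate and with only the 2 subsets compared. It was 0 in each of the 6 fits that left out a sample, and 1 with the replicate block and the remaining alternatives. Between CX3CR1high and CX3CR1int the count was 1 with the replicate block and 0 otherwise, and between CX3CR1int and CX3CR1low it was 0 throughout. Fewer samples, or more genes to adjust over, enter several of these alternatives by construction; for the others the cause was not tested. The replicate block changed no other call among the 10 genes.

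Calls over all genes tested were 62, 22 and 1 in the 3 comparisons as reported. For CX3CR1high against CX3CR1low they were 154 with the replicate block, 26 without the dim filter, 11 with every probe set, 6 with the marker covariate, 39 with only the 2 subsets, and 0 to 39 with a sample left out. For CX3CR1high against CX3CR1int they were 47 with the replicate block, 0 without the dim filter and with every probe set, 4 without the trend, 2 after quantile normalization, 35 with the covariate, 14 with only the 2 subsets, and 0 to 17 with a sample left out. For CX3CR1int against CX3CR1low they ran from 0 to 3. Il12b and Stat4 had no value at the 50th percentile filter, which left them out as dim.

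Of 477 recomputed differences of the 10 genes, 42 changed sign, none of them called. Many of the 477 could not change sign, because several settings leave the estimate as reported by construction. These are the replicate block, the other dim filters, every probe set on its own and no intensity trend. Fits of only the compared subsets, or without a sample of the uninvolved subset, also leave it unchanged. The share of 42 in 477 is therefore not a measure of how stable the signs are. Stat4, which is outside the 10 and not in these counts, is listed beside them. With the marker covariate, CX3CR1high against CX3CR1low turned for Il6 (0.25), Socs3 (-0.29) and Socs2 (-0.082), CX3CR1high against CX3CR1int for Il6 (0.18), Il4ra (-0.12) and Socs3 (-0.0088), and CX3CR1int against CX3CR1low for Il10 (-0.21), Il10ra (-0.21), Il6 (0.073), Socs3 (-0.28), Socs2 (-0.046), Cish (-0.086) and Stat4 (-0.52). For CX3CR1high against CX3CR1low the SE in this model exceeded the size of each turned difference: 0.384 (Il6), 0.312 (Socs3) and 0.369 (Socs2). In the same model CX3CR1high against CX3CR1low shrank without turning for Il10ra (0.0373), Il12b (0.258), Cish (0.0218) and Stat4 (0.196). The mean of probe sets turned Socs2 (-0.065, CX3CR1high against CX3CR1low) and Socs3 (-0.145, CX3CR1int against CX3CR1low). Quantile normalization turned Socs2 (-0.013, CX3CR1high against CX3CR1low) and Il6ra (0.00083, CX3CR1high against CX3CR1int). Ranges with a sample left out that crossed 0 were, for CX3CR1high against CX3CR1low, -0.125 to 0.295 (Il10rb), -0.315 to 0.215 (Il4ra) and -0.05 to 0.08 (Socs2). For CX3CR1high against CX3CR1int they were -0.36 to 0.27 (Il6), -0.23 to 0.19 (Il6ra), -0.08 to 0.13 (Il4ra), -0.025 to 0.375 (Socs3), -0.185 to 0.165 (Socs2) and -0.18 to 0.53 (Cish). For CX3CR1int against CX3CR1low they were -0.125 to 0.245 (Il10), -0.03 to 0.35 (Il10ra), -0.5 to 0.11 (Il12b), -0.34 to 0.19 (Il4ra), -0.04 to 0.46 (Socs3), -0.15 to 0.2 (Socs2), -0.26 to 0.45 (Cish) and -0.255 to 0.645 (Stat4).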
